A study of Mus musculus with 7 samples.

Results

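The genes described here are made by neutrophils as they mature: granule proteins, enzymes, surface molecules and chemoattractant receptors. A list of 40 such genes was looked up by symbol in the expression table of mouse spleen, and a gene was kept where its mean level over the 7 libraries was at least 1 FPKM (fragments per kilobase of transcript, relative to all mapped fragments). All 40 were in the table of 17920 genes, and 36 passed, out of 11378 genes that passed in the whole table. The genes were grouped by the stage of neutrophil development at which each is known to be made. The early group, made by promyelocytes, kept 5 of 8 genes, and the specific granule group, made by myelocytes and metamyelocytes, kept 12 of 13. The mature cell group of gelatinase, surface and receptor genes kept 13 of 13. A group of 6 genes, all kept, is cytosolic or shared with other myeloid or stromal cells. The genes left out were Ms4a3 at a mean of 0.894 FPKM, Ceacam10 at 0.82 FPKM, Fcnb at 0.599 FPKM and Cebpe at 0.48 FPKM, and the nearest genes kept were Itgb2l at 1.06 FPKM, Ctsg at 1.07 FPKM and Olfm4 at 1.11 FPKM.

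The spleens came from mice labelled C57BL/6 and 8 weeks of age, and every mouse had received 20 mg/kg lipopolysaccharide (LPS, a component of the bacterial cell wall) into the peritoneum. Spleen was taken 90 min or 6 h later from wild-type mice and from mice labelled GdX-/- (GdX-/Y in the series' title). GdX is the X-linked gene Ubl4a, and these mice are called GdX-deficient here after their label. At 90 min each genotype had 2 libraries, and at 6 h wild type had 2 and GdX-deficient spleen had 1. The labels name splenocytes as the source, while the protocol describes crushed whole spleen. Neither the type of allele nor its cell specificity is given in the labels. The design text counts 4 wild-type and 3 GdX-deficient mice, so each library may be 1 mouse, although no sample label says so. If not, the p-values measure only the spread between these libraries. No spleen without LPS was analysed here, so no level can be set against one before LPS.

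Depth estimated from the steps between low values was 19400000 to 21500000 fragments per library. Ubl4a itself stood at 5.62 and 7.50 FPKM in wild type and 4.03 and 5.69 FPKM in GdX-deficient spleen at 90 min, and at 11.9 and 14.0 FPKM against 10.6 FPKM at 6 h. The genotypes thus overlapped at 90 min. Its sum with Gm44504, a table entry for the same place on chromosome X chosen for its values, separated them, with 21.02 and 22.02 against 5.04 and 7.55 FPKM at the earlier time and 62.98 and 38.05 against 11.2 FPKM at the later one. Gm44504 alone read 15.4 and 14.5 against 1.01 and 1.86 FPKM, and then 51.1 and 24.0 against 0.66 FPKM. As it was chosen for these values, the sum is no independent check of the labels. All 7 neutrophil markers, all 5 B cell markers and all 8 red pulp macrophage markers were present at a mean of at least 1 FPKM. The paired libraries differed at least 2-fold in 140 genes in wild type at 90 min, 674 genes in GdX-deficient spleen at 90 min and 997 genes in wild type at 6 h.

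Neutrophils fill their granules in a fixed order. Promyelocytes make the azurophil proteins (the serine proteases elastase, proteinase 3 and cathepsin G, and myeloperoxidase), myelocytes make the proteins of specific granules such as lactoferrin and cathelicidin, and later cells make gelatinase and the receptors for chemoattractants. The mRNAs of the early stages are largely lost in the mature cell, so early genes are used as marks of immature cells and later genes as marks of mature neutrophils. Several of the later genes, among them Itgam, the formyl peptide receptors and the Trem receptors, are also made by monocytes and macrophages. LPS draws mature neutrophils into the spleen and also induces acute phase genes such as Saa3, Lcn2 and Hp in several cell types. In bulk tissue, fewer cells of a type and less RNA per cell cannot be told apart.

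Promoter sequence was examined because groups of these genes had like layouts over the libraries and the lineage factors C/EBP and PU.1 and the LPS-activated factor NF-kB are known to act on myeloid genes. Of the 36 genes, 32 had an entry in the RefSeq table of promoters (GRCm38.p6), each window running from 250 bases before to 50 bases after a transcript start. The C/EBP motif TTGCNNAA, the PU.1 core AGGAAGT and the NF-kB motif (GGGA and CC with 4 bases of any kind between them) were searched on both strands. The C/EBP motif was found for 10 of the 32 genes, against 12.2% of all genes in the table. For the PU.1 core the count was 13 of 32 against 10.68%, and for NF-kB 9 of 32 against 22.92%. These are matches of letters in a window, not sites shown to be bound. The 250 bases before the start are printed for the neighbouring early genes Elane (chr10:79886062-79886311, plus strand) and Prtn3 (chr10:79879417-79879666, plus strand), for Mmp8 (chr9:7558179-7558428, plus strand) and S100a8 (chr3:90668821-90669070, plus strand), which had some of the widest differences between libraries, and for Saa3 (chr7:46715677-46715926, minus strand), which had the largest time difference in wild type. Each sequence runs 5′ to 3′ toward the start site, with motif matches in capitals.
Elane: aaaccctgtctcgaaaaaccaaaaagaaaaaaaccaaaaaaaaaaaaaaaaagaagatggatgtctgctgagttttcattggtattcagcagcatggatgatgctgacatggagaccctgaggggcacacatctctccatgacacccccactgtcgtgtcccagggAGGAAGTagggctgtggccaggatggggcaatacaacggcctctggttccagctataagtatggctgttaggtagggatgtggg
Prtn3: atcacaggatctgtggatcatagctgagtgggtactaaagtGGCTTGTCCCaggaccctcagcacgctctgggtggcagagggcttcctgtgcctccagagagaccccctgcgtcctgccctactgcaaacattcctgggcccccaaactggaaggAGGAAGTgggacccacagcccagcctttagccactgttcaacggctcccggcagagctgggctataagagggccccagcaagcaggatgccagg
Mmp8: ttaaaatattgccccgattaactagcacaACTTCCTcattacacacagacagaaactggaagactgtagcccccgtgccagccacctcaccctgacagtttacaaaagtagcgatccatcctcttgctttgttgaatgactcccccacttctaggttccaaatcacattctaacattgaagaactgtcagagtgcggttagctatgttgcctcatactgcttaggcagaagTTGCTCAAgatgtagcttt
S100a8: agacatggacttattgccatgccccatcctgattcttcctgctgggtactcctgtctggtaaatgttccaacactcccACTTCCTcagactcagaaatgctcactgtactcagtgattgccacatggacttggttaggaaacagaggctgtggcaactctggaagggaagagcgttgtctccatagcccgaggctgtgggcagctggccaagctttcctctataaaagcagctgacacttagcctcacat
Saa3: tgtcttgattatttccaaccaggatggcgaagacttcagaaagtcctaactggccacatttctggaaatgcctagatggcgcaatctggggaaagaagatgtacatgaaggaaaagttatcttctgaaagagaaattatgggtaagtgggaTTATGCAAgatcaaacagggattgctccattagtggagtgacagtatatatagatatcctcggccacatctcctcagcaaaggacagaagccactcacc
The PU.1 core began 84 bases before the start in Elane and 94 bases before it in Prtn3, which also had an NF-kB match. Mmp8 held the PU.1 core, on the opposite strand, 221 bases before its start and a C/EBP match 19 bases before it. S100a8 held only the PU.1 core, also on the opposite strand, at 172 bases. In Saa3 a C/EBP match lay 99 bases before the start, and no NF-kB match was among these letters.

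At 90 min after LPS, 8 of the 13 mature cell genes had a value in one GdX-deficient library at least 2-fold, in FPKM, above the highest of the 3 other libraries (4.32% of all genes), and no gene of the 36 passed the test between genotypes. For the other 5 (Fpr2, Trem3, Ltb4r1, Fpr1 and Mcemp1) this library was highest by 1.42-fold to 1.97-fold. The test was limma on log2(FPKM + 1) with Benjamini-Hochberg adjustment over all 11378 genes and a threshold of 0.05, and it called 0.0176% of all genes. At an unadjusted limma p under 0.05 there were 11 of the 36, 9 higher and 2 lower in GdX-deficient spleen, against 7.58% of all genes (3.16% higher and 4.41% lower). The median log2 difference was 0.49 over the 36 genes and 0.07 over all genes tested. By group it was 0.85 for mature cell, 0.39 for specific granule, 0.36 for shared and -0.36 for early genes. Both GdX-deficient libraries lay above both wild-type ones for 15 genes (24.1% of all genes) and below both for 6 (23.4%).

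**Figure D1:**
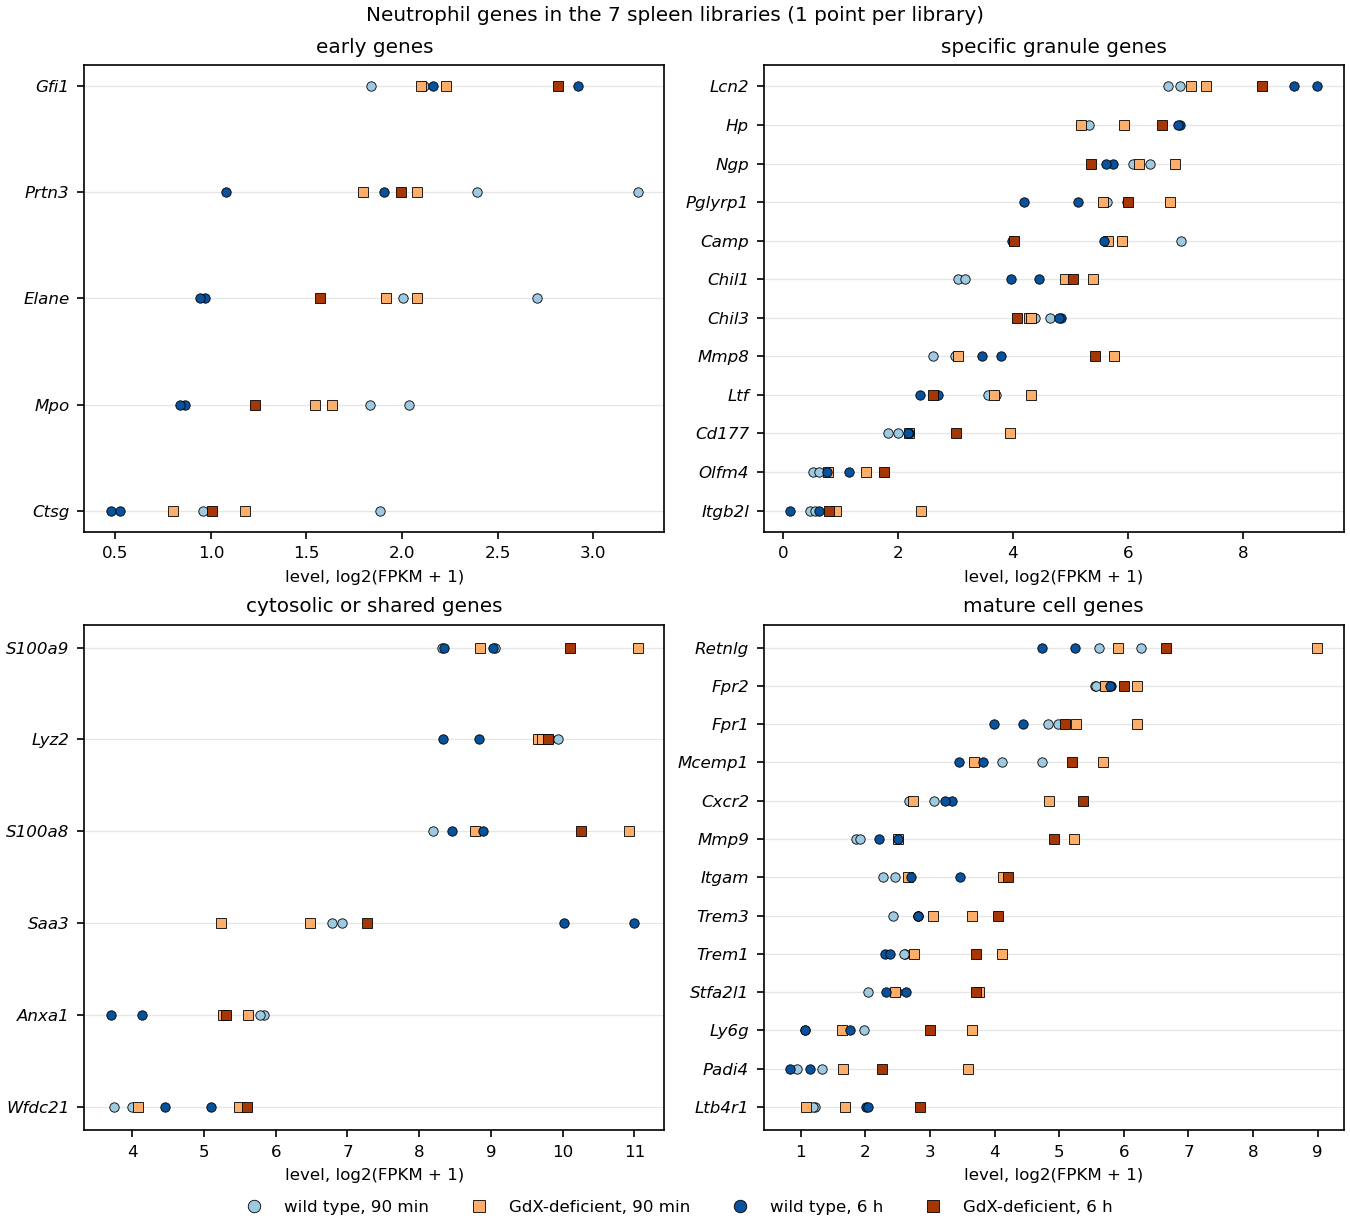
Level of each of the 36 genes as log2(FPKM + 1), 1 point per library and 1 panel per group; circles are wild type, squares GdX-deficient, light 90 min and dark 6 h. In the mature cell panel all 13 genes have 1 of the 2 light squares, or the dark square, as the rightmost point, while the early genes Prtn3, Elane, Mpo and Ctsg have their rightmost point in wild type at 90 min.

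The library that stood apart was GdX-deficient replicate 2 at 90 min. It exceeded replicate 1 at least 2-fold on the log2(FPKM + 1) scale for 16 of the 36 genes, against 3.65% of all genes, and for 9 of the 13 mature cell genes. It had the highest value of the 7 libraries for 18 genes (19.2% of all genes). This library and the GdX-deficient library at 6 h were the 2 highest for 19 of the 36 genes (27.6% of all genes) and for 11 of the 13 mature cell genes. Itgb2l, counted in the 16 and the 18, reached the filter only through replicate 2, with a mean of 0.525 FPKM without it. Olfm4, counted in the 19, passed the filter through its GdX-deficient libraries. Without replicate 2 the median genotype difference at 90 min was 0.12 over the 36 genes and 0.15 over the mature cell genes, and without replicate 1 it was 0.97 and 1.51. Replicates of wild type differed at least 2-fold in either direction for 1 gene of the 36 at 90 min (140 of all 11378 genes). At 6 h they also did so for 1 gene (997 of all 11378).

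The metalloproteinase genes were among those with the widest gap between the GdX-deficient replicates of 90 min. Mmp9, gelatinase B of the late granules, stood at 2.63 and 2.76 FPKM in wild type and 4.69 and 36.5 FPKM in GdX-deficient spleen at 90 min, and at 3.63 and 4.69 FPKM against 29.3 FPKM at 6 h. GdX-deficient libraries lay above wild type at each time, but replicate 1 of 90 min only reached the level of the upper wild-type library of 6 h. The log2 difference at 90 min was 1.98 (SE 0.69, limma adjusted p = 0.603), and it was 0.62 without replicate 2 and 3.35 without replicate 1 (limma adjusted p = 0.0347). Mmp8, the neutrophil collagenase of specific granules, had the same layout, with 6.99 and 5.11 against 7.26 and 53.0 FPKM at 90 min and 10.03 and 12.87 against 42.25 FPKM at 6 h. Its log2 difference at 90 min was 1.60 (SE 0.69, limma adjusted p = 0.621).

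For Cxcr2, Ly6g, Padi4 and Itgam the same 2 libraries were the highest. Cxcr2, the receptor for CXC chemokines that draws neutrophils out of marrow, stood at 7.33 and 5.41 FPKM in wild type and 5.68 and 27.5 FPKM in GdX-deficient spleen at 90 min, and at 9.10 and 8.40 against 40.1 FPKM at 6 h. Ly6g, the surface antigen by which mouse neutrophils are recognised, read 2.94 and 1.09 against 2.11 and 11.6 FPKM at 90 min and 2.4 and 1.1 against 7 FPKM at 6 h. For both genes, GdX-deficient replicate 1 lay between the wild-type libraries of 90 min. Padi4, which citrullinates histones during the release of neutrophil extracellular traps, read 0.92 and 1.5 against 2.15 and 11.0 FPKM at 90 min and 0.78 and 1.20 against 3.77 FPKM at 6 h, without overlap of the genotypes at either time. Itgam, the CD11b integrin chain, likewise did not overlap, with 3.81 and 4.51 against 5.32 and 16.5 FPKM at 90 min and 5.5 and 10.02 against 17.4 FPKM at 6 h.

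Retnlg, a resistin-like secreted protein, made up 40.4% of the summed level of the mature cell genes over the 7 libraries, and 27.3% without GdX-deficient replicate 2 at 90 min. In wild type at 6 h Fpr2 was higher. Retnlg stood at 76.0 and 48.0 FPKM in wild type and 58.9 and 509.3 FPKM in GdX-deficient spleen at 90 min, an 8.65-fold gap between the GdX-deficient replicates, and at 36.9 and 25.5 against 99.99 FPKM at 6 h. The formyl peptide receptors Fpr1 and Fpr2, neighbours on chromosome 17 that detect bacterial peptides, had smaller gaps. Fpr1 read 27.5 and 30.6 against 37.1 and 72.3 FPKM at 90 min and 14.8 and 20.7 against 33.0 FPKM at 6 h. Fpr2 read 46.1 and 46.3 against 51.2 and 72.5 FPKM at 90 min and 54.6 and 54.2 against 63.1 FPKM at 6 h. In both receptors all GdX-deficient libraries lay above the wild-type libraries of their time. The ratio of Fpr1 to Fpr2 was 0.597 and 0.66 in wild type at 90 min and 0.271 and 0.382 at 6 h, against 0.725 and 0.998 in GdX-deficient spleen at 90 min and 0.523 there at 6 h.

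Trem1 and Trem3, adjacent activating receptors of myeloid cells on chromosome 17, also separated the genotypes at both times. Trem1 read 5.14 and 5.02 against 5.74 and 16.3 FPKM at 90 min and 3.93 and 4.2 against 12.03 FPKM at 6 h. Trem3 read 4.35 and 6.03 against 7.27 and 11.5 FPKM at 90 min and 6.05 and 6.06 against 15.5 FPKM at 6 h. For Trem3 the highest library was GdX-deficient at 6 h, and for Trem1 it was GdX-deficient replicate 2 at 90 min. The other mature cell genes were Stfa2l1, a stefin-type protease inhibitor, Mcemp1, a myeloid membrane protein, and Ltb4r1, the leukotriene B4 receptor. Stfa2l1 read 4.58 and 3.1 against 4.49 and 12.5 FPKM at 90 min and 5.21 and 4.01 against 12.1 FPKM at 6 h. Mcemp1 read 25.4 and 16.4 against 11.8 and 50.2 FPKM at 90 min and 13.1 and 9.93 against 35.5 FPKM at 6 h. Both were highest in GdX-deficient replicate 2 at 90 min, with replicate 1 below the upper wild-type library. Ltb4r1 ranged from 1.12 to 6.15 FPKM, highest in the GdX-deficient library at 6 h. Stfa2l1 belongs to a cluster of near-identical stefin genes, and how fragments were divided between copies is not given in the sources used here.

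S100a8 and S100a9, which encode the 2 chains of calprotectin and make up much of the neutrophil cytosol, were with Lyz2 the 3 highest of the genes in every library of 90 min and in the GdX-deficient library of 6 h. In wild type at 6 h Saa3 was the highest, and Lcn2 lay above S100a8 and Lyz2. S100a8 stood at 437.6 and 292.4 FPKM in wild type and 439.6 and 1935 FPKM in GdX-deficient spleen at 90 min, and at 475.0 and 351.8 against 1222 FPKM at 6 h. S100a9 stood at 529.6 and 316.9 against 459.1 and 2118 FPKM at 90 min and at 519.2 and 323.7 against 1102 FPKM at 6 h. The 90 min genotypes overlapped for S100a9, and for S100a8 GdX-deficient replicate 1 lay level with the upper wild-type library. The ratio of S100a8 to S100a9 stayed between 0.826 and 1.11 over the 7 libraries, while the highest library of each gene lay over 6-fold above the lowest. Wfdc21, a small secreted protein of the whey acidic family, read 14.9 and 12.4 against 16.0 and 43.9 FPKM at 90 min and 33.4 and 21.01 against 47.4 FPKM at 6 h.

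Chil1, a secreted chitinase-like protein that neutrophils store in specific granules, differed from these genes in that both GdX-deficient replicates at 90 min lay well above wild type. It stood at 7.28 and 7.94 FPKM in wild type and 29.0 and 40.9 FPKM in GdX-deficient spleen, and at 14.7 and 20.9 against 31.9 FPKM at 6 h. Its log2 difference of 2.04 at 90 min (SE 0.30, limma adjusted p = 0.14) had the smallest p of the 36 genes and did not pass. It passed in the fit of only the 4 libraries compared, together with Mmp9, where 1.59% of all genes passed. Without a wild-type library of 6 h, Chil1 and Mmp9 also passed (1.52% of all genes without replicate 1 and 1.61% without replicate 2, which added Padi4). Chil1 alone passed without wild-type replicate 2 at 90 min. The related gene Chil3, which macrophages also make, lay lower in GdX-deficient spleen at both times, at 24.0 and 19.8 against 18.4 and 18.9 FPKM and at 27.5 and 26.9 against 15.8 FPKM. The ratio of Chil1 to Chil3 was 0.304 and 0.401 in wild type at 90 min and 0.535 and 0.777 at 6 h, while GdX-deficient spleen had 1.58 and 2.16 at the earlier time and 2.02 at the later one.

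With time as a covariate, 3 GdX-deficient libraries were set against 4 wild-type ones, using the same libraries as the comparisons at each time. No gene of the 36 passed (background 0.0439%), and the limma adjusted p-values lay between 0.0915 for Chil1 and 0.952 for Elane. At an unadjusted limma p under 0.05 there were 19 genes (27% of all genes), 18 higher and 1 lower, against 17.8% and 9.19% of all genes. The mature cell genes made up 10 of the 18, and all 13 of them had positive differences, with a median of 1.04. The median was 0.44 for specific granule genes, 0.62 for shared genes and -0.05 for early genes, against 0.16 for all genes tested. The early median changed sign, to 0.09, when FPKM were rescaled without globin genes or GdX-deficient replicate 2 at 90 min was left out. It was -0.32 with quantile normalization and -0.36 without the GdX-deficient library of 6 h. The mature cell median lay between 0.76 and 1.43 under the scalings and without either GdX-deficient library of 90 min. Genotypes did not overlap at both times for 14 genes that were higher (background 19%) and 2 that were lower, Chil3 and Saa3 (background 13%).

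The largest differences in this fit were 2.21 for Mmp9 (SE 0.51, limma adjusted p = 0.101), -1.89 for Saa3 (SE 0.46, limma adjusted p = 0.101), 1.68 for Mmp8, 1.57 for Retnlg and 1.56 for Chil1. S100a8 followed at 1.45, Padi4 at 1.40, Cxcr2 at 1.38, S100a9 at 1.33 and Ly6g at 1.31. A single library decided the count of calls. Without GdX-deficient replicate 1 at 90 min, 19 genes were called higher and Saa3 was called lower, among them 11 of the 13 mature cell genes, where 14.7% of all genes were called. Mmp9 then stood at 2.95 (limma adjusted p = 0.0048). Without replicate 2 in its place no gene was called, and Mmp9 stood at 1.59 (limma adjusted p = 0.35). Without wild-type replicate 2 at 90 min, Chil1, Mmp9 and Saa3 were called (2.13% of all genes).

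At 6 h the GdX-deficient library lay above both wild-type libraries for all 13 mature cell genes, but this rests on 1 library and could not be tested. A gene was counted where its value there was 2-fold or more from the wild-type mean on the log2(FPKM + 1) scale and outside both wild-type values. This held for 16 genes that were higher and 1 that was lower, against 16.5% and 5.47% of all genes (22% in all). The library lay above both wild-type values for 28 genes (54.9% of all genes) and below both for 5 (25.3%). Of the 16, 10 were mature cell genes, 4 were shared genes and 2 were specific granule genes, and none was an early gene. The largest positive values were 2.56 for Mmp9, 2.08 for Cxcr2, 1.81 for Mmp8, 1.67 for Retnlg, 1.58 for Ly6g and 1.58 for S100a8. The median difference was 0.83 over the 36 genes and 1.27 over the mature cell genes, against 0.32 over all genes. With quantile normalization 10 genes were higher and 1 was lower, and 4 of these were mature cell genes. The split over all genes then moved from 1879 higher and 622 lower to 951 and 881, and the median over all genes from 0.32 to -0.02. Rescaling without globin genes moved the other way, to 21 higher and 1 lower among the 36, with 12 of the 13 mature cell genes higher, and to 2857 higher and 352 lower over all genes.

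**Figure D2:**
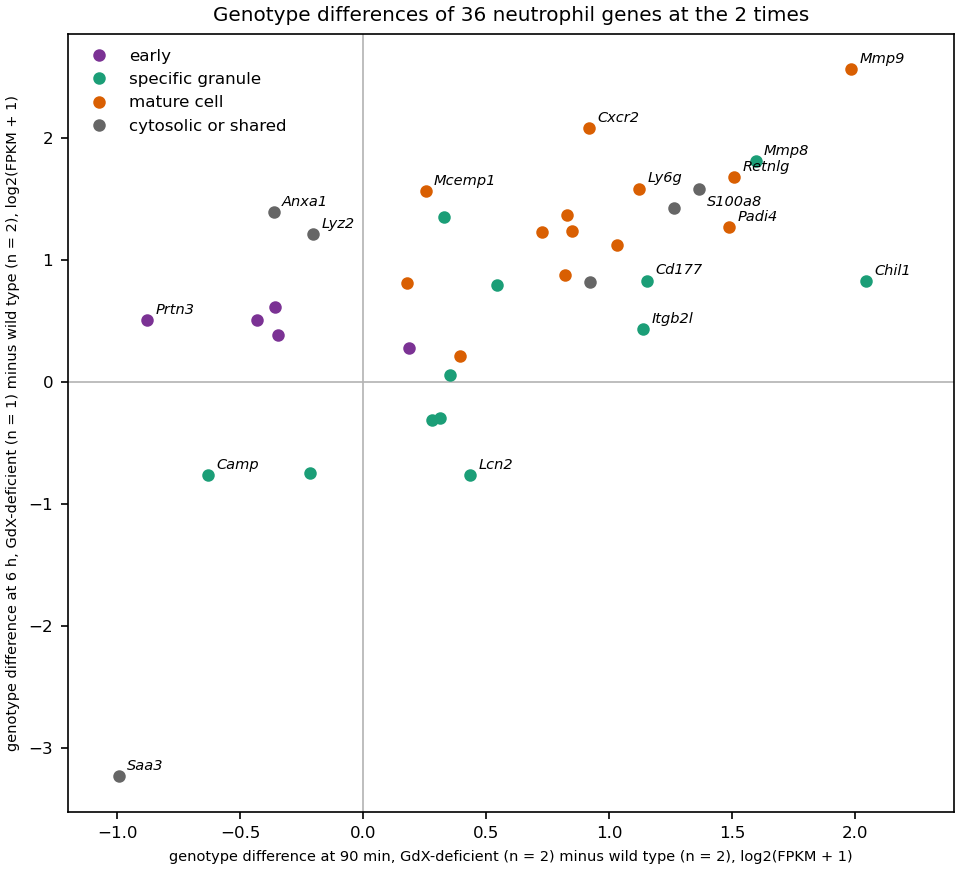
Difference between genotypes on the log2(FPKM + 1) scale at 90 min (horizontal axis, 2 against 2 libraries) and at 6 h (vertical axis, 1 against 2), 1 point per gene, coloured by group. All 13 mature cell genes lie right of and above 0, and Saa3 lies at -0.99 and -3.23.

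Markers of other spleen cells moved in the same libraries. At 6 h the summed level in the GdX-deficient library relative to the wild-type mean was 4.30-fold for the 5 B cell markers, 2.88-fold for the 7 neutrophil markers, 2.79-fold for the 5 erythroid markers and 2.77-fold for the 6 monocyte markers. It was 2.22-fold for cell cycle, 2.15-fold for stroma, 1.97-fold for T cell, 1.70-fold for promyelocyte, 1.63-fold for red pulp macrophage, 1.35-fold for progenitor and 1.03-fold for eosinophil, basophil and mast cell markers. At 90 min, GdX-deficient replicate 2 relative to replicate 1 was 4.74-fold for the neutrophil markers, 1.77-fold for B cell, 1.22-fold for T cell, 1.13-fold for stroma, 1.12-fold for cell cycle, 1.11-fold for monocyte and 1.08-fold for eosinophil, basophil and mast cell markers. It was 0.992-fold for progenitor, 0.875-fold for promyelocyte, 0.824-fold for erythroid and 0.793-fold for red pulp macrophage markers. No pancreas or fat marker reached a mean of 1 FPKM. Of the 7 neutrophil markers, 6 are among the 36 genes and 1, Csf3r, is not, so their sum repeats values given above. Each neutrophil marker was higher in replicate 2 than in replicate 1, as was every B cell, T cell and cell cycle marker. This was so for 7874 of the 11378 genes tested. At 6 h each neutrophil marker lay above both wild-type libraries, as did every B cell, erythroid, monocyte, cell cycle and stroma marker. Of all genes, 54.9% did so. The marker sums of B cells ranged from 362.5 to 1886 FPKM, of T cells from 90.6 to 264.6 FPKM and of erythroid cells from 167.7 to 1166 FPKM, and globin genes took 7.73% to 30.9% of a library's FPKM sum. Their part in the genotype values was not tested.

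None of the 5 early genes was highest in a GdX-deficient library, and their genotype values differed between the times. The median log2 difference of -0.36 at 90 min stood beside 0.51 at 6 h (0.32 over all genes). All 5 values were positive at 6 h (7536 of all 11378 genes), and 4 of the 5 genes lay above both wild-type libraries (54.9% of all genes). None reached 2-fold on the log2(FPKM + 1) scale, which understates low genes, while in FPKM Elane lay 2.1-fold and Ctsg 2.43-fold above the wild-type mean. With quantile normalization the 6 h median was -0.10, and 4 of the 5 values were negative (5800 of all 11378 genes). Whether early and mature cell genes differ was not tested. Elane, neutrophil elastase, stood at 5.53 and 3.01 FPKM in wild type and 2.78 and 3.23 FPKM in GdX-deficient spleen at 90 min, and at 0.96 and 0.92 against 1.97 FPKM at 6 h. Prtn3, proteinase 3, its neighbour on chromosome 10, stood at 8.41 and 4.25 against 3.22 and 2.47 FPKM at 90 min and at 2.74 and 1.11 against 2.99 FPKM at 6 h. Mpo, myeloperoxidase, stood at 3.10 and 2.56 against 2.10 and 1.92 FPKM at 90 min and at 0.82 and 0.79 against 1.35 FPKM at 6 h. For Prtn3 and Mpo the GdX-deficient libraries lay below both wild-type libraries at 90 min and above both at 6 h. Ctsg, cathepsin G, ranged from 0.39 to 2.69 FPKM, highest in wild-type replicate 1 at 90 min and lowest in wild type at 6 h. At these levels the estimated number of fragments was small, 108 and 59 for Elane in wild type at 90 min and 19 and 18 at 6 h, and 8 and 9 for Ctsg in wild type at 6 h. Gfi1, a transcriptional repressor needed for granulocyte development that lymphoid cells also use, did not follow the proteases. It read 2.58 and 3.33 FPKM in wild type and 3.29 and 3.69 FPKM in GdX-deficient spleen at 90 min, and 3.47 and 6.56 against 6.04 FPKM at 6 h, with its 2 highest values at the later time, 1 in each genotype.

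Summing each group in each library set the stages against each other. The 5 early genes summed to 22.3 and 14.1 FPKM in wild type and 12.7 and 12.1 FPKM in GdX-deficient spleen at 90 min, and to 8.38 and 9.82 against 13.4 FPKM at 6 h. Gfi1 made up 31.3% of the early sum over the libraries, and 6.56 of the 9.82 FPKM in wild-type replicate 2 at 6 h. The 13 mature cell genes summed to 208.0 and 172.0 against 197.5 and 849.8 FPKM at 90 min and to 159.0 and 153.0 against 375.0 FPKM at 6 h. The log2 ratio of early to mature sums was -3.22 and -3.61 in wild type and -3.97 and -6.14 in GdX-deficient spleen at 90 min. At 6 h it was -4.25 and -3.96 in wild type and -4.81 in the GdX-deficient library. The ratio was thus lower in the GdX-deficient libraries than in the wild-type libraries of the same time, with the 90 min GdX-deficient replicates further apart than the genotype means, and no test was made of a sum over chosen genes.

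**Figure D3:**
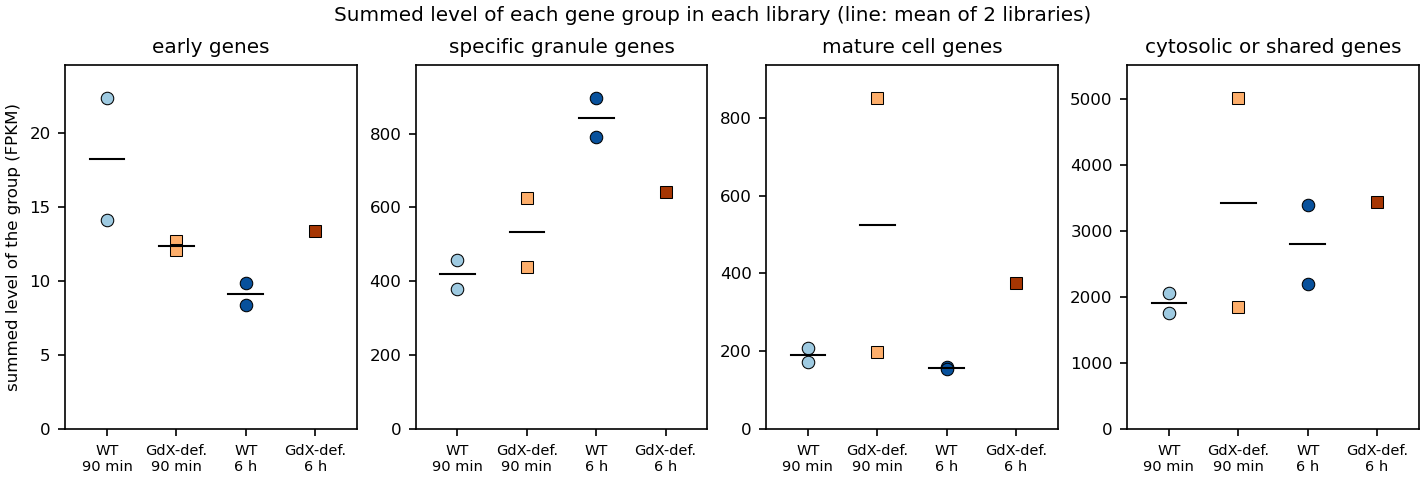
Summed FPKM of each gene group, 1 point per library, with a line at the mean of 2 libraries and each vertical axis starting at 0. The mature cell and shared sums are highest in GdX-deficient replicate 2 at 90 min, at 849.8 and 5015 FPKM, while the early sums are highest in wild type at 90 min and lowest in wild type at 6 h.

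Between 90 min and 6 h in wild-type spleen, 4 secreted protein genes rose and 4 genes of granulocytes and macrophages fell, and no mature cell gene passed. Of the 36 genes, limma called 8 (10.7% of all genes), 4 higher and 4 lower (4.39% and 6.32%). The times did not overlap for 16 genes that were higher at 6 h (30.3% of all genes) and 14 that were lower (27.6%). The comparison shares its 90 min libraries with the genotype comparison at that time. The genes that rose were Saa3, Lcn2, Hp and Chil1, and those that fell were Anxa1, Elane, Lyz2 and Mpo. They were 2 lower of 5 early genes, 3 higher of 12 specific granule genes, and 1 higher and 2 lower of 6 shared genes. By group, the median log2 difference was -1.08 for early, 0.29 for specific granule, 0.20 for mature cell and 0.10 for shared genes, against 0.05 for all genes. The shared median was -0.03 and -0.02 under quantile normalization and rescaling without globin genes. With that rescaling, Camp replaced Chil1, giving 3 higher and 5 lower among the 36 and moving the calls over all genes from 499 higher and 719 lower to 191 and 517.

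Saa3, serum amyloid A3, an acute phase protein of macrophages, fat and stroma, had the largest rise. It stood at 120.3 and 109.3 FPKM in wild type at 90 min and 2040 and 1033 FPKM at 6 h, a log2 difference of 3.65 (SE 0.43, limma adjusted p = 0.00221). In GdX-deficient spleen it stood at 88.3 and 36.8 FPKM at 90 min and 153.3 FPKM at 6 h, below wild type at each time. Lcn2, lipocalin 2, which binds bacterial siderophores, rose in wild type from 103.2 and 118.5 FPKM to 476.0 and 628.5 FPKM, a log2 difference of 2.30 (SE 0.26, limma adjusted p = 0.00197). Its GdX-deficient values were 164.2 and 136.6 FPKM at 90 min, above both wild-type libraries, and 321.9 FPKM at 6 h, below both. Hp, haptoglobin, which binds free haemoglobin, rose by 1.64 (SE 0.29, limma adjusted p = 0.011), from 35.6 and 38.9 FPKM to 119.4 and 116.8 FPKM, and in GdX-deficient spleen it read 35.6 and 60.5 FPKM and then 95.8 FPKM. Chil1 rose by 1.11 (limma adjusted p = 0.0453) from the values given above, and its call was lost without either GdX-deficient library of 90 min, without wild-type replicate 2 at 6 h and without either wild-type replicate at 90 min.

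Among the genes that fell, Anxa1, annexin A1, a phospholipid-binding protein abundant in neutrophils and macrophages, went from 56.2 and 53.9 FPKM at 90 min to 11.97 and 16.64 FPKM at 6 h in the wild-type libraries. Its log2 difference was -1.89 (SE 0.27, limma adjusted p = 0.0053). Lyz2, the lysozyme of macrophages and neutrophils, went from 906.7 and 980.9 FPKM to 322.5 and 454.7 FPKM, a difference of -1.30 (SE 0.28, limma adjusted p = 0.0214). In GdX-deficient spleen neither was low at 6 h: Anxa1 read 37.6 and 48.1 FPKM at 90 min and 38.7 FPKM at 6 h, and Lyz2 read 806.4, 833.6 and 885.8 FPKM in the same order. Elane fell by 1.40 (SE 0.30, limma adjusted p = 0.021) and Mpo fell by 1.08 (SE 0.24, limma adjusted p = 0.0244) in wild type. Prtn3, at -1.32 (limma adjusted p = 0.0575), and Ctsg, at -0.92 (limma adjusted p = 0.0952), did not pass, and their wild-type libraries did not overlap between the times. The calls of Elane, Lyz2 and Mpo were lost without wild-type replicate 1 at 90 min, which left 4 of the 36 genes called (3.96% of all genes), and those of Lyz2 and Mpo also without replicate 2. Without wild-type replicate 1 at 6 h the count was 12 (13.3% of all genes), and with no filter on low values it was 5 (3.54%). With the replicate number as a block it was 13 (20.6%).

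Specific granule genes split in wild type. Camp, cathelicidin, went from 120.2 and 58.5 FPKM to 46.8 and 14.8 FPKM, a difference of -1.63 (SE 0.50, limma adjusted p = 0.0685). Ltf, lactoferrin, went from 12.1 and 10.9 FPKM to 5.5 and 4.25 FPKM, a difference of -1.096 (SE 0.32, limma adjusted p = 0.0599). Their libraries did not overlap between the times, yet neither passed. With a trend on transcript length removed, 12 of the 36 genes were called for time in wild type (22.1% of all genes), among them Camp, Ltf, Prtn3 and Ltb4r1. Quantile normalization also added Ltb4r1. The replicate number as a block added the same 4 and Ctsg, but the labels do not say that the numbers pair libraries. Across all genes, the replicate differences of the 2 times in wild type had a correlation of 0.77. Ngp, a granule protein related to cathelicidin, read 82.6 and 66.9 FPKM and then 52.7 and 48.2 FPKM, and Pglyrp1, which binds bacterial peptidoglycan, read 62.6 and 49.0 FPKM and then 33.9 and 17.3 FPKM. In GdX-deficient spleen Pglyrp1 read 46.3 and 105.1 FPKM and then 63.4 FPKM. The ratio of Camp to Ngp ranged from 0.306 in wild-type replicate 2 at 6 h to 1.46 in wild-type replicate 1 at 90 min. The GdX-deficient values of Ngp were 72.6 and 112.6 FPKM and then 40.3 FPKM.

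Cd177, Itgb2l and Olfm4, low genes of the specific granule group, had values that did not overlap between the genotypes at either time. Itgb2l and Olfm4 passed the filter through their GdX-deficient libraries, with wild-type means of 0.378 and 0.728 FPKM, so their difference is part of how they were kept. Both are also among the 28 genes whose GdX-deficient library lay above both wild-type values at 6 h. Without both, 13 of 34 genes did not overlap and were higher at 90 min (24.1% of all genes), and 12 did so at both times (19%). At an unadjusted limma p under 0.05 there were then 10 at 90 min (7.58%) and 17 with time as a covariate (27%), 16 of them higher (17.8%). Cd177, a neutrophil surface glycoprotein, read 3.01 and 2.57 FPKM in wild type and 3.59 and 14.5 FPKM in GdX-deficient spleen at 90 min, and 3.6 and 3.5 against 7.07 FPKM at 6 h. Itgb2l, an integrin chain, read 0.39 and 0.48 against 0.89 and 4.28 FPKM, and 0.09 and 0.55 against 0.75 FPKM. Olfm4, olfactomedin 4, read 0.43 and 0.54 against 0.72 and 1.72 FPKM, and 0.71 and 1.23 against 2.39 FPKM. Cd177 and Itgb2l were highest in GdX-deficient replicate 2 at 90 min and Olfm4 in the GdX-deficient library at 6 h.

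Every B cell, T cell, red pulp macrophage, erythroid and stroma marker was lower in wild type at 6 h than at 90 min without overlap. So was every eosinophil, basophil and mast cell marker, against 27.6% of all genes. It held for 4 of 6 monocyte, 4 of 5 promyelocyte, 3 of 4 cell cycle, 1 of 4 progenitor and 1 of 7 neutrophil markers. The ratio of the wild-type means was 0.296 for B cells, 0.431 for T cells, 0.572 for red pulp macrophages and 0.37 for erythroid cells. It was 0.43 for stroma, 0.492 for eosinophil, basophil and mast cell, 0.566 for cell cycle and 0.709 for monocyte markers. For neutrophil markers it was 1.03, for progenitor markers 0.951 and for promyelocyte markers 0.293. The difference between wild-type replicates followed transcript length, with Spearman's rho across genes, which are not independent replicates, of 0.434 in the 90 min pair and 0.581 in the 6 h pair. The part of these in the time differences was not tested.

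With genotype as a covariate, 3 libraries of 6 h were set against 4 of 90 min, and limma called 6 of the 36 genes (5.44% of all genes), 4 higher and 2 lower (2.79% and 2.65%). Lcn2 at 1.82, Saa3 at 2.75 and Hp at 1.40 rose here too, with limma adjusted p-values of 0.00876, 0.0135 and 0.0142. Ltb4r1 rose by 1.07 (SE 0.25, limma adjusted p = 0.0382), from 1.33 and 1.29 FPKM to 3.03 and 3.13 FPKM in wild type and from 1.12 and 2.22 FPKM to 6.15 FPKM in GdX-deficient spleen. Camp at -1.68 (SE 0.37, limma adjusted p = 0.0321) and Ltf at -1.21 (SE 0.25, limma adjusted p = 0.0255) fell. In GdX-deficient spleen Camp read 49.1 and 59.0 FPKM at 90 min and 15.2 FPKM at 6 h, and Ltf read 11.7 and 19.0 FPKM and then 5.08 FPKM. The calls of Camp, Ltf and Ltb4r1 were lost without wild-type replicate 1 at 90 min, without wild-type replicate 2 at 6 h and without the GdX-deficient library of 6 h. Camp was also lost without either GdX-deficient library of 90 min, Ltf without wild-type replicate 2 at 90 min, and Ltb4r1 without replicate 2 of either genotype at 90 min, while Lcn2, Saa3 and Hp kept theirs without any 1 library. With no filter on low values none of the 36 was called (0.58% of all genes), and with a trend on transcript length removed 10 were (10.7%). Quantile normalization added Anxa1, Elane and Mpo to the genes called lower, giving 4 higher and 5 lower among the 36 and 305 and 578 over all genes in place of 318 and 301. Rescaling without globin genes took away Ltb4r1 and gave 112 higher and 215 lower over all genes.

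In GdX-deficient spleen alone the time difference rests on 1 library of 6 h and has no test. By the 2-fold rule 5 genes were higher at 6 h (Cxcr2, Ltb4r1, Saa3, Lcn2 and Hp) and 3 were lower (Ngp, Ltf and Camp), against 4.09% and 1.64% of all genes, or 5.73% in either direction. The values were 1.57 for Cxcr2, 1.45 for Ltb4r1, 1.41 for Saa3, 1.099 for Lcn2, 1.03 for Hp, -1.15 for Ngp, -1.39 for Ltf and -1.76 for Camp. The counts depended on which 90 min library was used, with 3 higher and 7 lower without replicate 1 (448 and 137 of the 11378 genes) and 12 higher and 2 lower without replicate 2 (1005 and 331). The median of the mature cell genes was 0.52 with both, -0.31 without replicate 1 and 1.26 without replicate 2. The median over all genes was 0.25. Quantile normalization moved the split over all genes from 465 higher and 187 lower to 262 and 325.

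**Figure D4:**
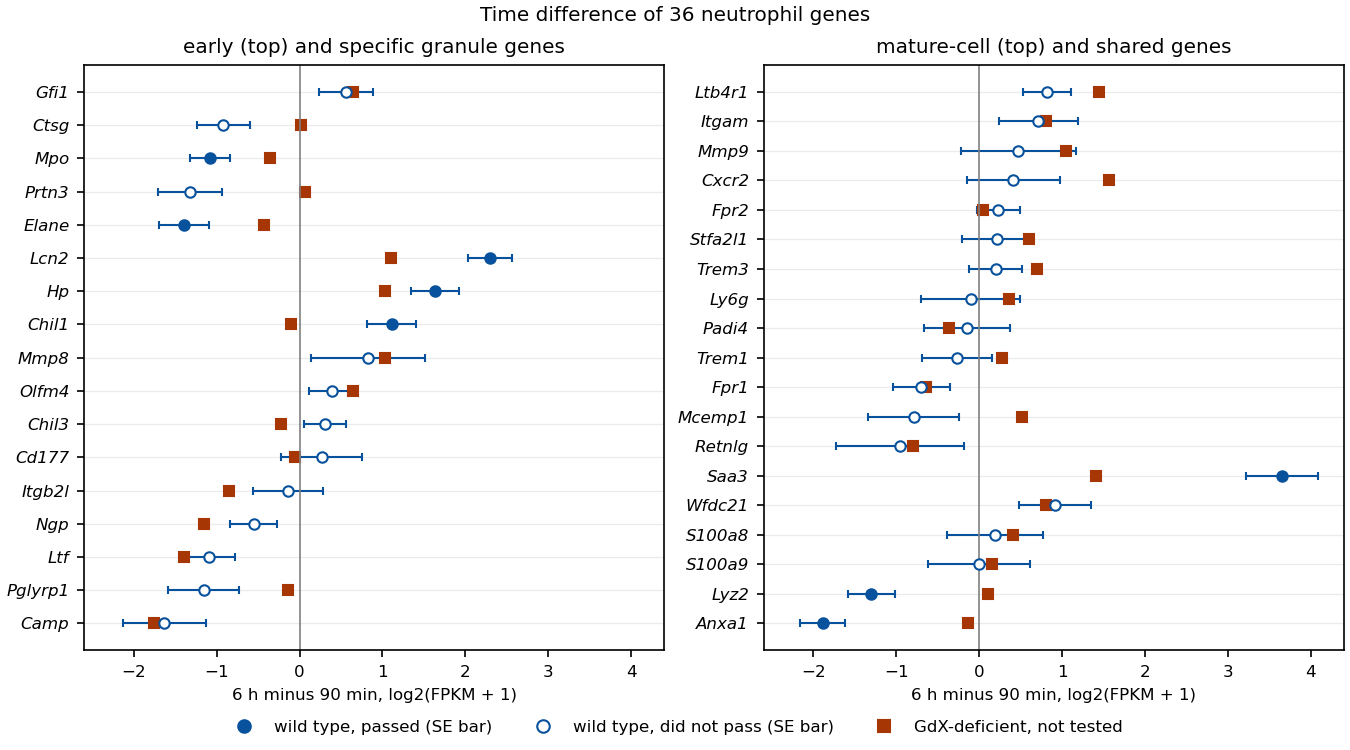
Difference between 6 h and 90 min on the log2(FPKM + 1) scale; circles are wild type (2 against 2 libraries, bars show the standard error, filled where limma passed) and squares are GdX-deficient (1 against 2, not tested). Saa3 has the largest wild-type value at 3.65, and in wild type no mature cell gene is filled.

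Of 47 other genes of neutrophil biology, 44 were tested, and none passed in either genotype test. Their medians were 0.24 at 90 min and 0.53 with time as a covariate, against 0.07 and 0.16 over all genes. At an unadjusted limma p under 0.05 there were 8 at 90 min (7.58% of all genes) and 21 with time as a covariate (27%), 18 of them higher (17.8%) and 3, Cebpb, Cebpd and Stfa2, lower (9.19%). Among the 8 tested adhesion and chemotaxis genes all had positive differences with time as a covariate (7073 of all 11378 genes) and a median of 0.91. Among the 5 cytokine receptors the median was 0.83. It was 0.92 for the 5 Fc receptors and lectins, 0.61 for 14 other genes abundant in neutrophils, 0.34 for the 6 NADPH oxidase genes, none of them at an unadjusted p under 0.05, and 0.16 for the 6 lineage transcription factors. Of these factors, Cebpb had a difference of -0.85 and Cebpd of -0.71 (limma adjusted p = 0.101 and 0.13). Ccr1, a receptor for CC chemokines, had the smallest p of the 8, with a difference of 1.51 (SE 0.38, limma adjusted p = 0.101). It read 2.69 and 2.37 against 3.47 and 12.2 FPKM at 90 min and 3.15 and 5.57 against 21.03 FPKM at 6 h. Cxcr4, the receptor that holds neutrophils in marrow and that B cells also carry, stood at 20.8 and 16.1 FPKM in wild type and 18.8 and 125.5 FPKM in GdX-deficient spleen at 90 min, and at 26.7 and 25.4 against 146.0 FPKM at 6 h. Csf3r, the G-CSF receptor, stood at 10.03 and 15.94 against 20.8 and 55.6 FPKM and at 14.1 and 23.1 against 86.9 FPKM. Ccr1, Cxcr4 and Csf3r had the same 2 GdX-deficient libraries highest as Mmp9, as did 20 of the 44 other genes in all (27.6% of all genes); Cxcr4 and Csf3r were chosen after their values were seen. By the 2-fold rule the GdX-deficient spleen of 6 h had 21 of the 44 higher and none lower, against 16.5% and 5.47% of all genes.

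With time in wild type, 3 of the 44 other genes rose and 3 fell, against 4.39% and 6.32% of all genes. Lrg1, a secreted leucine-rich glycoprotein of granules, rose by 1.79 (limma adjusted p = 0.016), Fcgr4, an IgG receptor, by 1.69 (limma adjusted p = 0.00916) and Il1r2, the decoy receptor for interleukin-1, by 1.21 (limma adjusted p = 0.0396). Cebpd, a C/EBP factor, fell by 1.67 (limma adjusted p = 0.0141), Serpinb1a, an inhibitor of the granule serine proteases, fell by 1.26 (limma adjusted p = 0.0213) and Ncf4, a subunit of the NADPH oxidase, fell by 1.15 (limma adjusted p = 0.0262). With genotype as a covariate Lrg1, Fcgr4 and Il1r2 again rose and Cebpd again fell. Lrg1 read 9.07 and 13.5 FPKM in wild type at 90 min and 42.2 and 39.4 FPKM at 6 h, and in GdX-deficient spleen 8.94 and 18.4 FPKM and then 116.4 FPKM. Fcgr4 went from 33.9 and 39.7 FPKM to 125.2 and 116.7 FPKM in wild type, with 53.2 and 32.6 FPKM and then 102.1 FPKM in GdX-deficient spleen. Il1r2 went from 19.4 and 16.1 FPKM to 42.4 and 42.3 FPKM, with 16.8 and 30.7 FPKM and then 52.6 FPKM. For Lrg1, Fcgr4 and Il1r2 every library of 6 h lay above the 90 min libraries of its genotype. Cebpd went from 118.8 and 95.2 FPKM to 41.4 and 25.95 FPKM in wild type, and its GdX-deficient values were 65.3, 43.1 and 26.5 FPKM, also lowest at 6 h. Serpinb1a went from 110.7 and 103.9 FPKM to 40.6 and 48.1 FPKM, and Ncf4 from 83.6 and 79.95 FPKM to 35.7 and 37.1 FPKM. In GdX-deficient spleen neither was low at 6 h, with 92.7 and 140.2 FPKM and then 99.4 FPKM for Serpinb1a, and 72.9 and 106.6 FPKM and then 84.9 FPKM for Ncf4.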

How the data were processed

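RNA from mouse spleen was selected with oligo-dT or depleted of rRNA (the labels' protocols leave this open) and sequenced on a BGISEQ-500 instrument in 7 libraries. The authors deposited FPKM values, rounded to 2 decimals, as a column for each library, per the file headers. The submitters' processing notes name HISAT, HISAT2 2.0.4, Bowtie2, RSEM and the build GRCm38.p5, with no role for each, and how FPKM were scaled is not given in the sources used here. Depth was estimated from the steps between low FPKM values, jointly with an effective length 40 bases shorter than the transcript.

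FPKM were converted to log2(FPKM + 1), which understates the change of low genes. The 11378 genes with a mean of at least 1 FPKM entered linear models of limma 3.58.1 under R 4.3.3 (variances moderated along a trend of mean level, two-sided, Benjamini-Hochberg adjustment over all of them, threshold 0.05). A fit of the 4 groups gave genotype at 90 min and time in wild type, with the spread estimated from the 3 groups of 2 libraries. Additive fits of genotype and time over all 7 libraries gave each factor adjusted for the other. The single GdX-deficient library at 6 h allowed only description. The fits were also run on simulated data with independent noise of the same spread in every library. Such data hold no library that stands apart, so they cannot check the error rates here. Tables were made with Python 3.11.15 and pandas 2.3.3.

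Every listed gene was accounted for. Named with all values were genes past the threshold, the 3 most abundant and the 2 with the largest genotype difference of each group, the pairs compared by ratio, and genes whose libraries separated the genotypes at both times; of the other genes, those past the threshold, Ccr1 for the list in which none passed and, added after their values were seen, Cxcr4, Csf3r and Gm44504. The genes, groups and lists were chosen with earlier results of these data known. Alternatives were a pseudocount of 0.1, no filter or a mean of at least 5 FPKM, quantile normalization, rescaling without globin genes, removal of a trend on transcript length, a block for the replicate number, a fit restricted to the compared libraries, and each library left out. Promoter windows are from RefSeq on GRCm38.p6, and gene levels do not depend on them.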

Additional observations from a re-analysis of the deposited data

Results flagged for a closer look

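In 5 of the 36 genes (13.9%) the genotypes separated in opposite directions at the 2 times, as they did in 7.79% of all 11378 genes, and the difference between the times was not tested. On the log2(FPKM + 1) scale, GdX-deficient minus wild type was -0.34 at 90 min and 0.38 at 6 h for Mpo, -0.88 and 0.51 for Prtn3, 0.43 and -0.76 for Lcn2, -0.20 and 1.21 for Lyz2, and -0.36 and 1.39 for Anxa1. Each GdX-deficient library lay outside both wild-type libraries of its time.

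In 2 genes (5.56%, against 9.14% of all genes) the times separated in opposite directions in the 2 genotypes, also without a test of the difference. The value at 6 h minus 90 min was -1.30 in wild type and 0.11 in GdX-deficient spleen for Lyz2, and 0.31 and -0.23 for Chil3. All of these rest on 1 GdX-deficient library at 6 h.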

How the results depend on the processing

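The groups hold 2, 2, 2 and 1 libraries, so few degrees of freedom stood behind each test, and low genes rest on few fragments. The median differences of the 36 genes were positive for genotype under every alternative run (0.12 to 0.969 at 90 min, 0.489 to 1.105 with time as a covariate, 0.669 to 1.164 at 6 h). Those for time changed sign. Time in GdX-deficient spleen went from 0.136 to -0.311 and time with genotype as a covariate from 0.088 to -0.21 without GdX-deficient replicate 1 at 90 min, and the latter to -0.013 without wild-type replicate 2 at 90 min. Time in wild type went from 0.097 to -0.051 with no filter, -0.02 rescaled without globin genes and -0.049 without wild-type replicate 2 at 90 min. The counts of genes called moved. For genotype at 90 min the count of 0 became 2 in the fit of only the 4 libraries compared and lay between 0 and 3 with a library left out (0.0176% to 1.61% of all genes). For genotype with time as a covariate it lay between 0 and 20 with a library left out (0.0176% to 14.7%). For time in wild type the count of 8 became 5 with no filter on low values and lay between 4 and 12 with a library left out (3.96% to 15.6%). For time with genotype as a covariate the count of 6 became 0 with no filter, 10 with the length trend removed (10.7% of all genes), and lay between 3 and 8 with a library left out (1.35% to 10.6%). For genotype at 6 h the count of 17 became 11 with quantile normalization and lay between 16 and 19 with a library left out (16.6% to 33.7%). For time in GdX-deficient spleen the count of 8 became 7 (4 higher and 3 lower) with quantile normalization and rescaled without globin genes, and it was 10 without replicate 1 and 14 without replicate 2 of 90 min (5.14% and 11.7%). Rescaled without globin genes, genotype at 6 h gave 21 higher and 1 lower among the 36 (2857 and 352 over all genes). The causes were not tested.

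Of 513 values of single genes under alternatives, over 36 results, 442 kept their direction and side of the threshold, 34 gained and 36 lost the call, and 1 changed sign. That was Prtn3 for genotype with time as a covariate, which read 0.025 without wild-type replicate 1 at 90 min and lay between -0.877 and 0.025 over the libraries left out. As the difference of mean log2(FPKM + 1) in place of a ratio of sums, early against mature cell genes read -0.75 and -1.09 in wild type and -1.38 and -3.06 in GdX-deficient spleen at 90 min, and -1.76 and -1.77 against -2.66 at 6 h.

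The replicate numbers of the titles are not said to pair libraries, and the correlation of replicate differences across genes was -0.12 between the genotypes at 90 min, 0.77 between the times in wild type and 0.08 between GdX-deficient at 90 min and wild type at 6 h. With the replicate number as a block, the counts were 0 for both genotype tests, 13 for time in wild type (20.6% of all genes) and 6 for time with genotype as a covariate. The block changed no call of the genotype tests, and with the numbers crossed between the genotypes the count at 90 min was 0 as well.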
